A study of Mus musculus with 11 samples.

Results

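Immune checkpoint and costimulation genes were followed in transduced mouse CD4 T cells with WT FoxP3, either of its mutant forms A384T and R397W, or an empty vector. The set was fixed by name as 10 genes, with earlier results of these data known. Every probe set that the platform annotation gives to exactly 1 of these symbols was taken. This gave 17 probe sets of 34945 with 1 symbol: 1 each for Ctla4, Pdcd1, Lag3, Havcr2, Cd274 and Pdcd1lg2, 2 each for Cd28 and Cd86, 3 for Icos and 4 for Cd80. Ctla4, Cd28, Icos, Pdcd1, Lag3 and Havcr2 encode receptors of T cells, and Cd80, Cd86, Cd274 and Pdcd1lg2 encode ligands.

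The starting cells were naive CD4+CD25- T cells of high CD45RB, sorted from spleen and lymph nodes of BALB/cA mice. All groups were stimulated with anti-CD3e at 0.5 µg/ml, IL-2 at 10 ng/ml and irradiated (20 Gy) spleen cells lacking T cells. They were infected 24 h later with MIGR1 retrovirus, and CD4 cells with high GFP were collected by sorting on day 7. The groups were R397W FoxP3 (2 arrays), A384T FoxP3 (3 arrays), WT FoxP3 (3 arrays) and mock, which received the MIGR1 vector without FoxP3 (3 arrays). A384T and R397W are single amino acid substitutions of FoxP3, the transcription factor of regulatory T (Treg) cells. In all groups FoxP3 or the empty vector came from a virus in activated cells, so none of them holds Treg cells taken from an animal. Nothing in the labels says that a group's arrays stand for separate cultures or animals. The p-values therefore measure only the spread between arrays, and this may be technical.

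CD28 delivers the classical costimulatory signal when it binds CD80 or CD86, and CTLA-4 binds the same ligands with higher affinity and restrains the response. ICOS is a relative of CD28 that is induced on activation. PD-1, the product of Pdcd1, is an inhibitory receptor whose ligands are PD-L1 (Cd274) and PD-L2 (Pdcd1lg2). LAG-3 binds MHC class II and TIM-3, the product of Havcr2, is an inhibitory receptor of exhausted and type 1 helper T cells. Treg cells carry CTLA-4 constitutively and use it to strip CD80 and CD86 from antigen-presenting cells. The ligands are best known from antigen-presenting cells, although activated T cells can make them as well.

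Each value is a log2 value relative to the median of the 3 mock arrays at its probe set, which is 0 by construction. Differences between arrays can be read, but expression levels cannot, and no probe set can be set against another for its level. Whether T cell genes are present or genes of other cells absent cannot be checked for the same reason. The array medians over all probe sets lay between -0.016 and 0.0022, and precision is limited by the number of arrays. The median standard error (SE) of a difference was 0.142 for 3 arrays against 3 and 0.159 for 2 against 3. The 1 Foxp3 probe set gave no check of the transduced gene. It lay between -0.39 and -0.19 with R397W, 0.096 and 0.329 with A384T, -0.066 and 0.106 with WT FoxP3 and -0.34 and 0.26 in mock, and it passed the test in none of the 6 comparisons (lowest adjusted p = 0.194, limma). The sources used here do not say whether its probes match transduced sequence.

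3 members stood apart in the plot of all values, Ctla4, Cd274 and Pdcd1lg2. All were higher with WT FoxP3 and with A384T than in mock, and none of them with R397W. Differences below are log2 differences ± SE from limma, fitted to all 34945 probe sets and 11 arrays. Calls were made where the adjusted p was below 0.05, with Benjamini-Hochberg adjustment over all probe sets of a comparison.

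**Figure D1:**
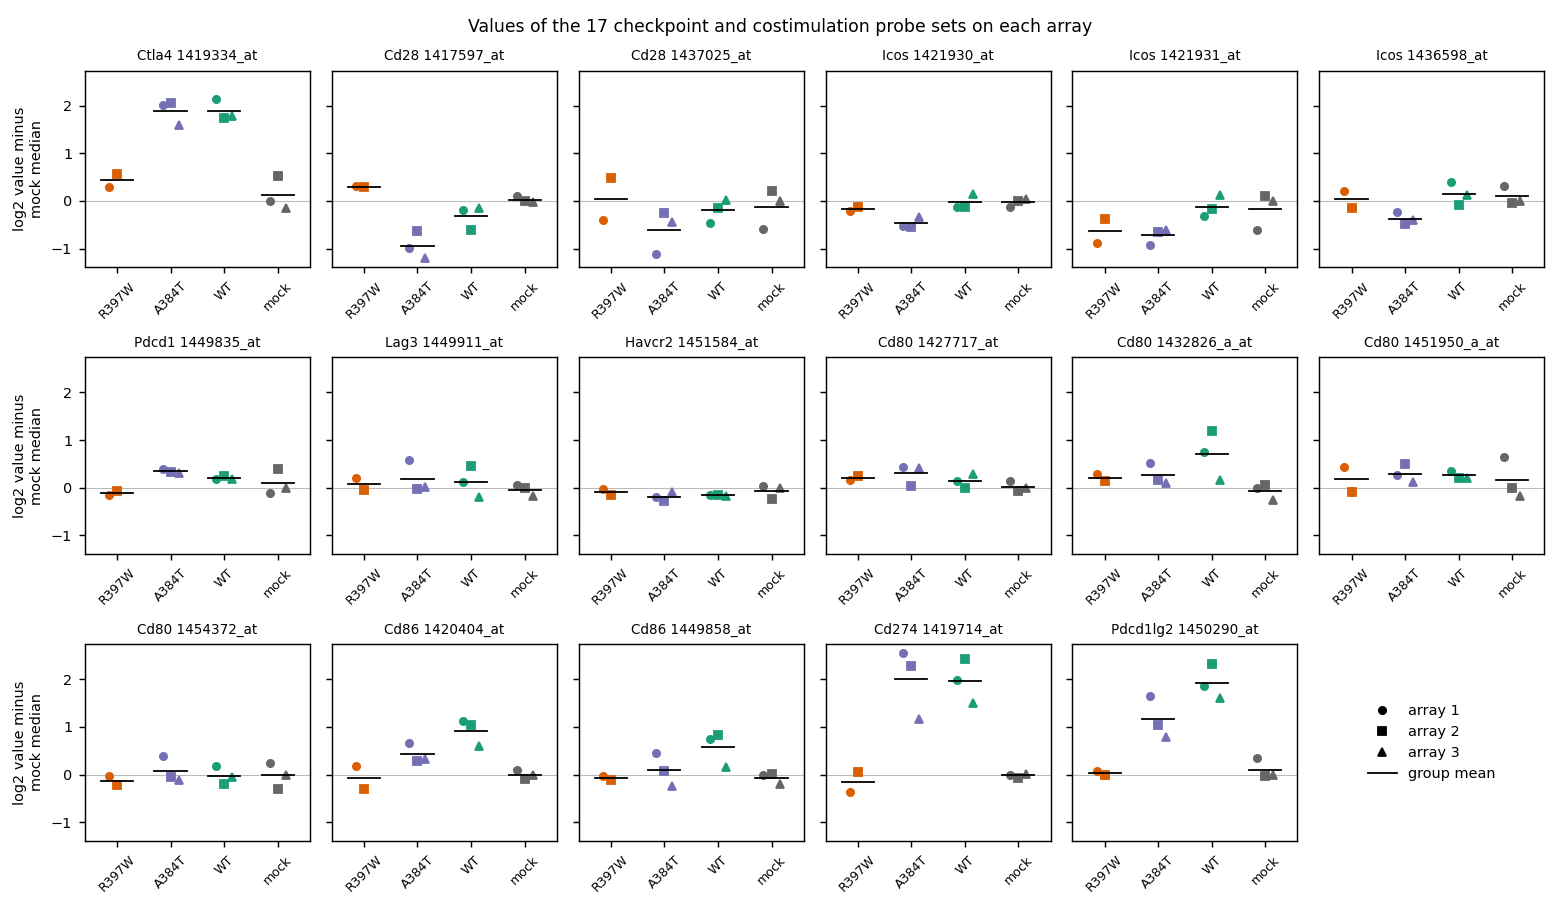
Log2 values relative to the mock median (vertical axis) of the 17 probe sets in R397W, A384T, WT FoxP3 and mock cells. Each symbol is 1 array, its shape gives the array number, and bars are group means. The A384T and WT arrays of Ctla4, Cd274 and Pdcd1lg2 lie above all R397W and mock arrays.

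Ctla4, the inhibitory receptor for CD80 and CD86, was at 0.29 and 0.56 on the R397W arrays, at 2.01, 2.05 and 1.59 with A384T, at 2.13, 1.73 and 1.77 with WT FoxP3 and at 0, 0.53 and -0.15 in mock. The A384T and WT arrays interleaved, and the lowest of them was above the highest R397W and mock arrays. Ctla4 rose 3.36-fold with WT FoxP3 over mock (1.75 ± 0.20, adjusted p = 0.000938) and 3.38-fold with A384T over mock (1.76 ± 0.20, adjusted p = 0.00105). With R397W it was at 0.30 ± 0.22 over mock, which was not called (95% interval -0.19 to 0.80). The difference of A384T from WT FoxP3 was 0.006 ± 0.199 and was not called. Its 95% interval was -0.44 to 0.45, so a difference within that range is not excluded. Ctla4 was 2.73-fold lower with R397W than with WT FoxP3 (-1.45 ± 0.22, adjusted p = 0.0079) and 2.74-fold lower with R397W than with A384T (-1.45 ± 0.22, adjusted p = 0.00863).

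Cd274, which encodes PD-L1, was at -0.36 and 0.06 with R397W, at 2.54, 2.27 and 1.17 with A384T, at 1.98, 2.43 and 1.51 with WT FoxP3 and at 0, -0.06 and 0.02 in mock. The mock arrays were close together, whereas the arrays with A384T spread widely (SD 0.73, n = 3) and array 3 was the lowest in both the A384T and the WT group. Cd274 rose 3.97-fold with WT FoxP3 (1.99 ± 0.33, adjusted p = 0.00878) and 4.03-fold with A384T (2.01 ± 0.33, adjusted p = 0.00924) over mock. With R397W it was at -0.13 ± 0.37 over mock (95% interval -0.95 to 0.69). It was 4.35-fold lower with R397W than with WT FoxP3 (-2.12 ± 0.37, adjusted p = 0.0155) and 4.41-fold lower than with A384T (-2.14 ± 0.37, adjusted p = 0.016).

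Pdcd1lg2, which encodes PD-L2, was at 0.09 and -0.01 with R397W, at 1.65, 1.03 and 0.79 with A384T, at 1.85, 2.32 and 1.61 with WT FoxP3 and at 0.34, -0.03 and 0 in mock. Here the A384T arrays were lower than the WT arrays apart from 1 that lay just above the lowest WT array. Pdcd1lg2 rose 3.54-fold with WT FoxP3 (1.82 ± 0.23, adjusted p = 0.00188) and 2.07-fold with A384T (1.05 ± 0.23, adjusted p = 0.0431) over mock. The difference of A384T from WT FoxP3 was -0.77 ± 0.23 (95% interval -1.29 to -0.25) and was not called (limma adjusted p = 0.65). Pdcd1lg2 was 3.71-fold lower with R397W than with WT FoxP3 (-1.89 ± 0.26, adjusted p = 0.00438), and its difference of R397W from A384T was -1.12 ± 0.26 (adjusted p = 0.0666). The rise with A384T was called in 3 of 11 fits without 1 array, those without A384T 3, WT 2 or WT 3, and the adjusted p reached 0.145 without mock 2.

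Cd274 and Pdcd1lg2 are neighbours on chromosome 19, with no protein-coding gene between them in RefSeq. Their promoters and that of Ctla4 are shown because these 3 genes had the largest rises of the set. A promoter here is the window from 250 bases before to 50 bases after the RefSeq start (build GRCm38.p6), and 6 of the 10 genes matched the RefSeq promoter table. Capitals mark the letters GGAAA, the core that NFAT binds, and TGTTTNC, a relaxed forkhead core, on either strand:
Ctla4 (chr1:60908775-60909074, + strand): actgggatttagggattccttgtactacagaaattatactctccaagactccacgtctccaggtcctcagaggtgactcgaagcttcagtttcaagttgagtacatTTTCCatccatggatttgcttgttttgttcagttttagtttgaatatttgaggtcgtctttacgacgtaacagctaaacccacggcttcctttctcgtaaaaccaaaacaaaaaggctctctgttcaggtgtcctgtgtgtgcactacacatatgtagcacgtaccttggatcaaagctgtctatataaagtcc
Cd274 (chr19:29367188-29367487, + strand): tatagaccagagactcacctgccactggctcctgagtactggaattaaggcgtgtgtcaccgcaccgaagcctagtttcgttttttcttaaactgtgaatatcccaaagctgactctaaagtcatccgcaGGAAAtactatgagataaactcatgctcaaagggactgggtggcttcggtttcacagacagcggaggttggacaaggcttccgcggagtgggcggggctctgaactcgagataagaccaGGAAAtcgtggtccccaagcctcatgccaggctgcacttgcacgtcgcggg
Pdcd1lg2 (chr19:29410669-29410968, + strand): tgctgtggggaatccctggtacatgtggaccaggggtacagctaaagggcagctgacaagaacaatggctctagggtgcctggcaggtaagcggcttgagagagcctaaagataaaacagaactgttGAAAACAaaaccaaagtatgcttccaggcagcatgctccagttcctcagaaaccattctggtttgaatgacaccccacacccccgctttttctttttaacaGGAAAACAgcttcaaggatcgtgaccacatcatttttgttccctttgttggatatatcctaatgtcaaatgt
The stricter forkhead core TGTTTAC was in none of the 6 windows and is in 3.65% of 32851 promoters of the same length. The relaxed core TGTTTNC was found in the Pdcd1lg2 window alone of the 6, at bases -123 and -21 before the start, and is in 20.5% of promoters. The second of these overlaps a GGAAA at base -22. GGAAA was in the windows of Ctla4 (base -144), Cd274 (bases -120 and -1), Pdcd1lg2 and Pdcd1 (bases -28 and -23), and is in 61.3% of promoters. The AP-1 site TGANTCA was found in the windows of Havcr2 (base -200) and Cd80 (base -42), 7.81% of promoters having it. A match in these letters is a description of the window and not a binding site.

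The comparison of WT FoxP3 with mock asked what FoxP3 by itself changes. Of the 17 probe sets 4 were called, all higher: Ctla4, Cd274, Pdcd1lg2 and 1 of the 2 for Cd86. Of all probe sets 3.21% were called, 1.81% as higher and 1.4% as lower. The groups did not overlap at 7 of the 17, against 16.2% of all probe sets. The median difference of the 17 was 0.11, against -0.0098 over all probe sets. The 4 lie among the ligands and Ctla4, while Cd28, Icos, Pdcd1, Lag3 and Havcr2 had no probe set called.

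Cd86, a ligand of CD28 and CTLA-4, had 2 probe sets. On 1420404_at it was at 0.17 and -0.31 with R397W, at 0.67, 0.29 and 0.32 with A384T, at 1.13, 1.05 and 0.60 with WT FoxP3 and at 0.09, -0.10 and 0 in mock. All WT arrays were above all mock and R397W arrays, and the A384T arrays lay between, with 1 of them above the lowest WT array. Cd86 rose 1.90-fold with WT FoxP3 over mock on this probe set (0.93 ± 0.18, adjusted p = 0.0177) and was 1.99-fold lower with R397W than with WT FoxP3 (-0.99 ± 0.20, adjusted p = 0.0293). On 1449858_at the order of the WT, A384T and mock means was the same, at 0.58 ± 0.37 with WT FoxP3, 0.10 ± 0.34 with A384T and -0.06 ± 0.12 in mock (SD, n = 3 each). There the difference of WT FoxP3 from mock was 0.64 ± 0.20 (adjusted p = 0.163, and 0.00804 when blocked by array number). A384T was at 0.43 ± 0.18 over mock on 1420404_at (adjusted p = 0.33), and at -0.50 ± 0.18 (adjusted p = 0.906) and -0.48 ± 0.20 (adjusted p = 1) over WT FoxP3 on the 2 probe sets. The rise of Cd86 with WT FoxP3 was not called without mock 2 (adjusted p = 0.0748), mock 3 (0.0617), WT 1 (0.0777) or WT 2 (0.0799).

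Cd80, the other ligand of CD28 and CTLA-4, was called on none of its 4 probe sets in the 6 comparisons, and these disagreed. On 1432826_a_at it was at 0.29 and 0.14 with R397W, at 0.52, 0.16 and 0.10 with A384T, at 0.76, 1.19 and 0.17 with WT FoxP3 and at 0, 0.05 and -0.26 in mock. The WT arrays were above the mock arrays, but WT 3 was far below the other WT arrays. The difference of WT FoxP3 from mock was 0.77 ± 0.23 (adjusted p = 0.123, and 0.013 when blocked by array number). On the other 3 probe sets of Cd80 it lay between -0.0038 and 0.116, with adjusted p from 0.862 to 0.999. With the block, 6 of the 17 probe sets were called in this comparison, against 8.66% of all probe sets.

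The B7 ligands are also genes of antigen-presenting cells, and irradiated spleen cells were in the culture before the sort. Of markers of other cells measured here, 0 of 9 B cell markers and 0 of 10 macrophage and dendritic cell markers were called by limma with WT FoxP3 over mock, nor was any of 6 MHC class II genes. Over all genes, each through its probe set with the largest SD, 3.75% were called. At an unadjusted p under 0.05 there were 1, 1 and 2 of the markers, against 12.3% of all probe sets (a share per probe set, not per gene). Whether other cells contributed was not tested. H2-Ab1, a chain of MHC class II, was at -1.02 ± 0.33 (adjusted p = 0.178, and 0.00458 when blocked by array number). The median of the B cell list lay between -0.185 and -0.136 on the WT arrays and at 0 on the mock arrays. That of the macrophage and dendritic cell list lay between -0.058 and 0.119 on the WT arrays and at 0 on the mock arrays. For MHC class II it was between -0.041 and 0.111 on the WT arrays and between -0.020 and 0.037 on the mock arrays. Each probe set is centred on its mock median. This draws the list medians of the mock arrays to 0, so these do not measure the mock spread. The markers' own levels cannot be read from these values. In sorted populations measured in bulk, more cells that express a gene and more RNA per cell cannot be told apart.

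**Figure D2:**
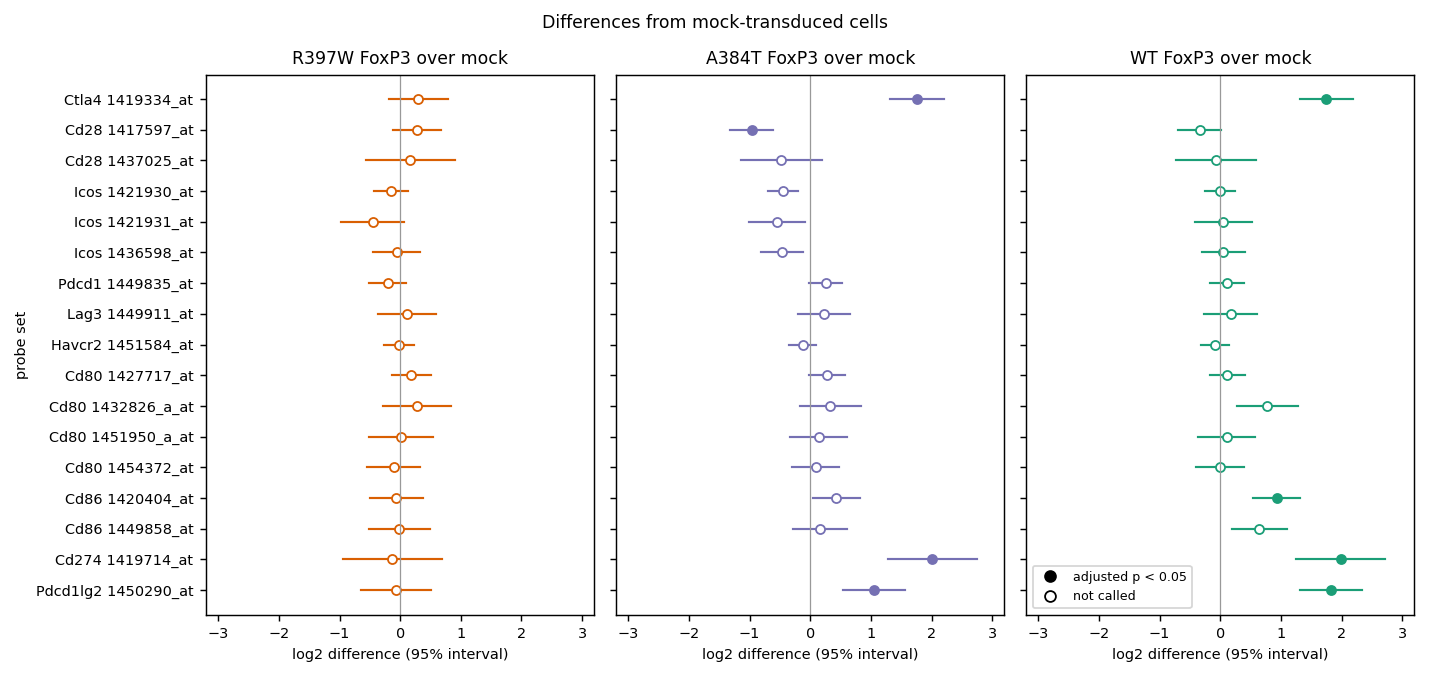
Log2 differences from mock (horizontal axis) of the 17 probe sets with R397W, A384T and WT FoxP3, with 95% intervals, and filled points for an adjusted p under 0.05. With R397W no point is filled, while Ctla4, Cd274 and Pdcd1lg2 are filled with A384T and with WT FoxP3.

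The comparison of A384T with mock asked what this mutant form changes. Of the 17 probe sets 3 rose and 1 fell, where 2.7% of all probe sets were called, 1.55% higher and 1.15% lower. The groups did not overlap at 8 of the 17, against 15.3% of all probe sets. The mock arrays are the same as in the comparison above, so both sets of values share them. Those that rose were Ctla4, Cd274 and Pdcd1lg2. The median difference of the 17 was 0.16, against -0.0048 over all probe sets.

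The 1 that fell was Cd28, the primary costimulatory receptor, on probe set 1417597_at. It was at 0.31 and 0.29 with R397W, at -0.99, -0.63 and -1.19 with A384T, at -0.19, -0.60 and -0.14 with WT FoxP3 and at 0.10, 0 and -0.02 in mock. The A384T arrays were the lowest of the study, the WT arrays were next, the lowest of them only just above, and the R397W arrays were the highest. Cd28 was 1.95-fold lower with A384T than in mock (-0.96 ± 0.16, adjusted p = 0.00959), and this was called in all 11 fits without 1 array (highest adjusted p = 0.043). The difference of WT FoxP3 from mock was -0.34 ± 0.16 (adjusted p = 0.443). A384T was at -0.63 ± 0.16 over WT FoxP3 (95% interval -0.98 to -0.27, adjusted p = 0.399), which was not called. Cd28 was 2.36-fold higher with R397W than with A384T (1.24 ± 0.18, adjusted p = 0.00625), and it was at 0.61 ± 0.18 with R397W over WT FoxP3 (adjusted p = 0.153).

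The second probe set of Cd28, 1437025_at, varied more within groups. It was at -0.40 and 0.49 with R397W, at -1.12, -0.26 and -0.44 with A384T, at -0.47, -0.14 and 0.01 with WT FoxP3 and at -0.59, 0.21 and 0 in mock. Array 1 was the lowest of each group, and all groups overlapped. A384T was at -0.47 ± 0.30 over mock here (adjusted p = 0.617, and 0.0333 when blocked by array number).

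Icos, the inducible relative of Cd28, had its lowest mean with A384T on all 3 probe sets. On 1421930_at it was at -0.22 and -0.13 with R397W, at -0.53, -0.55 and -0.33 with A384T, at -0.12, -0.13 and 0.15 with WT FoxP3 and at -0.13, 0 and 0.05 in mock. The A384T arrays were below all others. On 1436598_at the A384T arrays were at -0.22, -0.49 and -0.41, again below all R397W (0.21 and -0.14), WT (0.39, -0.09 and 0.13) and mock arrays (0.32, -0.04 and 0). On 1421931_at the A384T arrays lay between -0.92 and -0.61 and overlapped those of R397W (-0.87 and -0.38) and mock 1 (-0.62), while the WT arrays lay between -0.31 and 0.13.

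No single Icos probe set was called for A384T over mock in the main fit. The differences were -0.45 ± 0.11 (adjusted p = 0.0743), -0.47 ± 0.16 (adjusted p = 0.203) and -0.55 ± 0.21 (adjusted p = 0.279). Blocked by array number, the limma adjusted p was 0.0124, 0.00933 and 0.0161 in this order, and all 3 were called. With the 3 probe sets averaged, Icos fell by 0.488 in A384T over mock (SE 0.091, adjusted p = 0.0123 over 18193 genes, of which 4.15% were called), and it was at -0.52 ± 0.09 in A384T over WT FoxP3 (adjusted p = 0.0611). With WT FoxP3 over mock the averaged difference was 0.032 ± 0.091 (adjusted p = 0.947).

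Cd28, Ctla4 and Icos stand next to each other in this order on chromosome 1, with no other protein-coding gene between them in RefSeq. With A384T over mock, Ctla4 was at 1.76 ± 0.20. Its neighbours, on the mean of their probe sets, were at -0.72 ± 0.17 for Cd28 and at -0.488 ± 0.091 for Icos. The single Cd28 probe sets were at -0.96 (1417597_at) and -0.47 (1437025_at). With WT FoxP3 over mock, Ctla4 was at 1.75 ± 0.20, and the means were -0.20 ± 0.17 for Cd28 and 0.032 ± 0.091 for Icos. On 1417597_at Cd28 was at -0.34 ± 0.16 there. On chromosome 19, by contrast, both neighbouring genes, Cd274 and Pdcd1lg2, rose in both comparisons.

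The comparison of A384T with WT FoxP3 asked where the mutant differs from the normal form. None of the 17 probe sets was called by limma, where 0.114% of all probe sets were, 0.0544% higher and 0.0601% lower. At an unadjusted p under 0.05 there were 7 of the 17, all lower with A384T, against 4.27% of all probe sets in either direction and 2.04% lower. They were all 3 of Icos, both of Cd86, Cd28 on 1417597_at and Pdcd1lg2, and probe sets of the same gene are not independent. The groups did not overlap at 5 of the 17, against 7.72% of all probe sets: Cd28 on 1417597_at and the 3 of Icos with A384T below, and Pdcd1 with A384T above. The median difference of the 17 was -0.40, against 0.0029 over all probe sets. Blocked by array number, 1 of the 17 was called against 0.589% of all probe sets, Icos on 1436598_at (-0.52, adjusted p = 0.0342). On the other Icos probe sets the adjusted p was 0.0748 and 0.0624 with the block.

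Ctla4 and Cd274 were not among those 7. The difference of A384T from WT FoxP3 was 0.022 ± 0.330 for Cd274, and its 95% interval ran from -0.71 to 0.75. For Pdcd1lg2 it ran from -1.29 to -0.25. A difference between these genes in this respect was not tested.

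**Figure D3:**
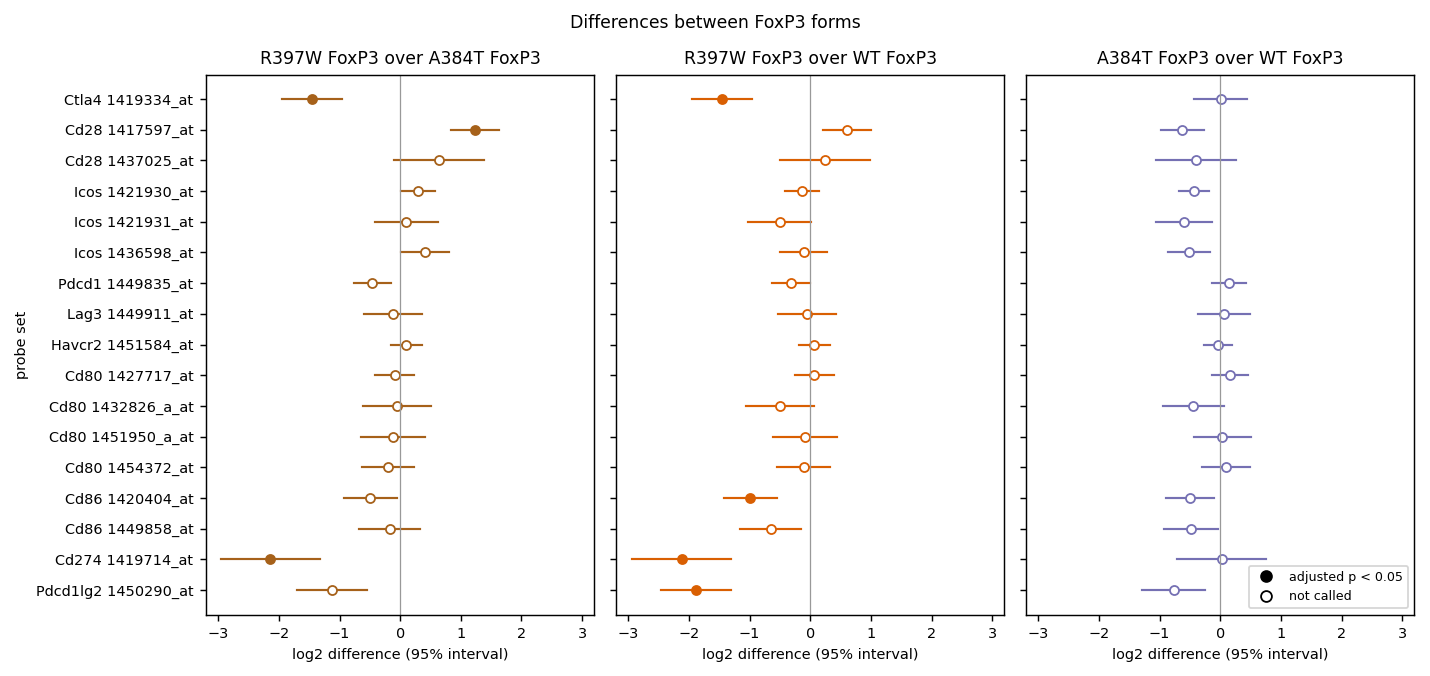
Log2 differences between FoxP3 forms (horizontal axis) of the 17 probe sets, with 95% intervals, and filled points for an adjusted p under 0.05. With R397W, Ctla4 and Cd274 are lower than with A384T and with WT FoxP3, and no point is filled for A384T over WT FoxP3.

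With R397W over mock, 0 of the 17 probe sets were called by limma, and 0 had an unadjusted p under 0.05. Over all probe sets 0% were called and 1.75% had an unadjusted p under 0.05. The differences of the 17 lay between -0.45 (Icos on 1421931_at) and 0.30 (Ctla4), and the median was -0.021, against 0.006 over all probe sets. The groups did not overlap at 3 of the 17, all with R397W above mock, against 11.8% of all probe sets, and these were Cd28 on 1417597_at and Cd80 on 1427717_at and 1432826_a_at. The 2 R397W arrays leave wide intervals, of which that of Cd274 excludes a rise above 0.69 and that of Pdcd1lg2 one above 0.51.

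With R397W over WT FoxP3, 4 of the 17 were called, all lower, where 2.15% of all probe sets were called, 0.959% as higher and 1.19% as lower. The groups did not overlap at 8 of the 17, against 24.3% of all probe sets. The called probe sets were those of Ctla4, Cd274 and Pdcd1lg2 and 1420404_at of Cd86, for which values are given above. The second Cd86 probe set was at -0.65 ± 0.23 (adjusted p = 0.261). Several of these calls depended on single arrays. Without R397W 1 Pdcd1lg2 alone was called, without R397W 2 Ctla4 alone, and without WT 2 there were 2. The adjusted p of Ctla4 was 0.0956 without R397W 1. That of Pdcd1lg2 was 0.0509 without R397W 2. That of Cd274 was 0.15, 0.0712 and 0.0594 without R397W 1, R397W 2 and WT 2. Cd86 was called in 6 of the 11 fits without 1 array and lost without R397W 1 (0.0532), R397W 2 (0.24), WT 1 (0.0984), WT 2 (0.107) or mock 3 (0.051).

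With R397W over A384T, 1 probe set was called higher, Cd28 on 1417597_at, and 2 lower, Ctla4 and Cd274, where 1.83% of all probe sets were called, 0.75% higher and 1.08% lower. The groups did not overlap at 8 of the 17, against 23.6% of all probe sets. Without R397W 1 none was called by limma, and without R397W 2 Ctla4 alone. Cd28 was at an adjusted p of 0.0659 and 0.0614 without R397W 1 and R397W 2. Cd274 was at 0.164, 0.0781 and 0.062 without R397W 1, R397W 2 and A384T 2, and Ctla4 at 0.103 without R397W 1. Of the markers of other cells, Adgre1, a macrophage surface receptor, was called higher with R397W than with A384T (1.19 ± 0.21, adjusted p = 0.0202), in 7 of the 11 fits without 1 array. The other 9 macrophage and dendritic cell markers, the 9 B cell markers and the 6 MHC class II genes were not called by limma in this comparison. At an unadjusted p under 0.05 there were 0, 0 and 2 of them, against 11% of all probe sets (a share per probe set, not per gene). Of all genes 2.29% were called. The macrophage and dendritic cell list had medians of 0.0685 to 0.0708 on the R397W arrays and -0.070 to 0.001 on the A384T arrays. The part of these markers in the result was not tested.

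The inhibitory receptors Pdcd1, Lag3 and Havcr2 were called in none of the 6 comparisons. Pdcd1, which encodes PD-1, was at -0.16 and -0.06 with R397W, at 0.40, 0.32 and 0.32 with A384T, at 0.19, 0.26 and 0.17 with WT FoxP3 and at -0.10, 0.39 and 0 in mock. The A384T arrays were above all WT arrays, and these above the R397W arrays, but the mock arrays spanned nearly the whole range. The largest difference of Pdcd1 was that of R397W from A384T, at -0.46 ± 0.14 (adjusted p = 0.175). With WT FoxP3 over mock it was at 0.11 ± 0.12 (95% interval -0.16 to 0.39). Lag3, the receptor for MHC class II, was between -0.05 and 0.20 with R397W, -0.03 and 0.58 with A384T, -0.19 and 0.45 with WT FoxP3 and -0.18 and 0.05 in mock. Its difference of WT FoxP3 from mock was 0.17 ± 0.19. Havcr2, which encodes TIM-3, lay between -0.28 and 0.05 on all arrays, and its difference of WT FoxP3 from mock was -0.087 ± 0.102. Whether these 3 genes were expressed at all cannot be read from centred values.

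Other genes of the checkpoint and costimulation system were taken from lists written by name, each gene through its probe set with the largest SD over all arrays. For genes read this way, 3.75% of 18193 were called with WT FoxP3 over mock and 3.24% with A384T over mock. Of 14 other receptors, 2 rose and 1 fell with WT FoxP3 over mock, and 2 rose and 2 fell with A384T over mock. The median was -0.17 with WT FoxP3, against -0.016 over all genes, and -0.23 with A384T, against -0.010 over all genes. Slamf1, a receptor of activated T cells that binds itself, rose in both (2.28 ± 0.29 with A384T, adjusted p = 0.00198, and 2.19 ± 0.29 with WT FoxP3, adjusted p = 0.0022). So did Cd2, an adhesion and costimulation receptor for CD48 (0.61 ± 0.10 with A384T and 0.62 ± 0.10 with WT FoxP3). Cd5, a negative regulator of T cell receptor signals, was called lower in both, by small margins (-0.46 ± 0.10, adjusted p = 0.0481, and -0.47 ± 0.10, adjusted p = 0.0385), and these calls held in 0 and 2 of the 11 fits without 1 array (highest adjusted p = 0.171 with A384T, without A384T 1, and 0.146 with WT FoxP3, without WT 2). Cd96, a receptor for CD155, fell with A384T (-0.69 ± 0.12, adjusted p = 0.0144), and was at -0.02 ± 0.12 with WT FoxP3 over mock. The fall was not called without mock 1 (adjusted p = 0.0511) or A384T 3 (0.0507). Cd96 was at -0.66 ± 0.12 with A384T over WT FoxP3 (adjusted p = 0.127, and 0.0147 when blocked by array number). Cd200r1, the receptor for CD200, was at -1.35 in the same comparison (adjusted p = 0.351, and 0.0266 when blocked).

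Of 11 other ligands, 3 rose and 0 fell in each of these comparisons, with medians of 0.32 for A384T and 0.19 for WT FoxP3. Pvr, which encodes CD155, the ligand of CD96 and CD226, rose by 1.24 ± 0.16 with A384T (adjusted p = 0.00215) and 1.26 ± 0.16 with WT FoxP3 (adjusted p = 0.00165). Icosl, the ligand of ICOS, rose by 1.04 ± 0.23 with A384T (adjusted p = 0.0435) and 1.69 ± 0.23 with WT FoxP3 (adjusted p = 0.00278). The Icosl call with A384T was lost in 7 of the 11 fits without 1 array (highest adjusted p = 0.158, without mock 3). Cd48, the ligand of CD2, was called at 0.47 ± 0.11 and 0.53 ± 0.11 (adjusted p = 0.0463 and 0.0241 with A384T and WT FoxP3), and the A384T call was lost in every fit without 1 array (0.0526 to 0.147). The WT FoxP3 call was lost in 4 of these fits (highest adjusted p = 0.0907, without mock 2). Tnfrsf14, a ligand of BTLA, was at 0.499 with WT FoxP3 over mock (adjusted p = 0.726, and 0.0304 when blocked). With A384T over mock Tnfrsf14 was at 0.958 ± 0.377 (limma adjusted p = 0.304, and 0.000785 when blocked).

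Signalling proteins below CD28, ICOS, CTLA-4 and PD-1 had 0 of 17 called by limma in any of the 6 comparisons. Their medians were 0.02 with A384T over mock and 0.01 with WT FoxP3 over mock. At an unadjusted p under 0.05 there were 0 to 2 of the 17 in a comparison, against 1.75% to 12.5% of all probe sets (shares per probe set, not per gene). The largest value with WT FoxP3 over mock was that of Cblb, a ubiquitin ligase that sets the need for CD28 signals, at -1.05 ± 0.34 (adjusted p = 0.17, and 0.00404 when blocked by array number). The next was Cbl, a related ubiquitin ligase, at 0.95 ± 0.61 (adjusted p = 0.641, and 0.00402 with the block). Of 7 genes tied to CTLA-4 trafficking, Trat1, the adaptor TRIM that helps carry CTLA-4 to the surface, fell with A384T over mock (-2.43 ± 0.41, adjusted p = 0.0103). The call was lost without mock 3 (adjusted p = 0.0504). Trat1 was at -1.35 ± 0.41 with WT FoxP3 over mock (adjusted p = 0.142, and 0.0145 with the block) and was higher with R397W than with A384T (2.43 ± 0.46, adjusted p = 0.025), but not without R397W 1 (0.178) or R397W 2 (0.142). It was at -1.09 ± 0.41 with A384T over WT FoxP3 (adjusted p = 0.992).

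With R397W over WT FoxP3, 0 of the 14 other receptors were called higher and 2 lower, Slamf1 (-2.06 ± 0.32) and Cd2 (-0.61 ± 0.11), where 2.58% of genes were called. Of the 11 other ligands 3 were lower, Pvr (-1.58 ± 0.18), Icosl (-1.41 ± 0.26) and Cd48 (-0.63 ± 0.12). Pvr was called in all 11 fits without 1 array, Slamf1 in 10 (adjusted p = 0.1 without R397W 1), and Cd2, Icosl and Cd48 in 7 each. With R397W over A384T, Cd96 (0.97 ± 0.14) and Slamf6, a receptor of the same family as Slamf1 (1.14 ± 0.23), were higher, where 2.29% of genes were called. Slamf1 (-2.14 ± 0.32), Cd2 (-0.60 ± 0.11), Pvr (-1.56 ± 0.18) and Cd48 (-0.57 ± 0.12) were lower in that comparison. In the 11 fits without 1 array Pvr was called in 11, Cd96 and Slamf1 in 10, Cd2 in 7, Slamf6 in 2 and Cd48 in 0. With R397W over mock none of the 14 receptors and 11 ligands was called by limma, and 0 had an unadjusted p under 0.05.

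**Figure D4:**
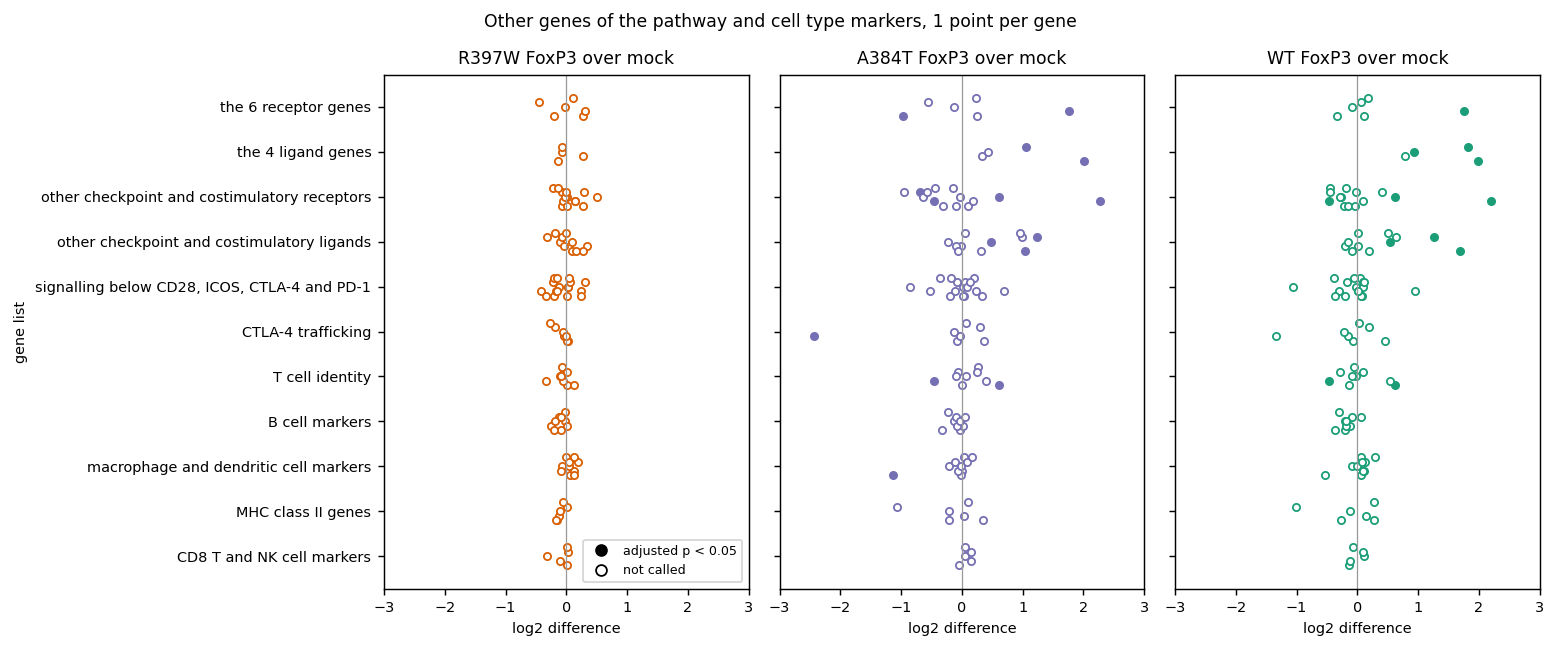
Log2 differences from mock (horizontal axis) with R397W, A384T and WT FoxP3, 1 point per gene through its probe set of largest SD, by list, and filled for an adjusted p under 0.05. Outside the rows of the 10 genes, Slamf1 at 2.28 and 2.19, Pvr at 1.24 and 1.26 and Icosl at 1.04 and 1.69 stand out to the right with A384T and WT FoxP3. Trat1 at -2.43 stands out to the left with A384T, and no point is filled with R397W.

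Marker lists of other cells were also read with A384T over mock, where 3.24% of all genes were called. Of the macrophage and dendritic cell markers 1 of 10 was called with A384T over mock, Adgre1, and it fell (-1.13 ± 0.19, adjusted p = 0.0109; 0.0512 without A384T 2). None of the 9 B cell markers, 6 MHC class II genes or 5 CD8 T and NK cell markers was called by limma there. At an unadjusted p under 0.05 there were 1, 1 and 0 of them, against 12.5% of all probe sets (a share per probe set, not per gene). The MHC class II gene was H2-Ab1, at -1.08 ± 0.33 with A384T over mock (limma adjusted p = 0.153, and 0.00366 when blocked by array number). The list medians on the A384T arrays lay between -0.136 and -0.042 for B cells, between -0.070 and 0.001 for macrophages and dendritic cells and between -0.054 and 0.074 for MHC class II. Of 9 T cell identity genes Cd2 and Cd5, given above, were called with A384T and with WT FoxP3 over mock. Cd247, the zeta chain of the T cell receptor complex, was at 0.528 with WT FoxP3 over mock (adjusted p = 0.635, and 0.0156 when blocked).

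The genes whose probe sets ran most like Ctla4 over the 11 arrays were Sec13, a subunit of the COPII coat (Pearson r = 0.984), Pigz (0.981), Slamf1 (0.978), Ptpn9, a phosphatase (0.976), and Tgm2, a transglutaminase (0.975). Those most like Cd274 were Bcl2l1, which encodes the survival protein BCL-XL (0.993), Ptger4, the prostaglandin receptor EP4 (0.992), 6430571L13Rik (0.983), Dexi (0.983) and Traf6, a signal adaptor (0.983). The sizes of change differed among them, from 0.405 for Sec13 to 4.48 for Tgm2 with WT FoxP3 over mock. Among the members, r was 0.930 for Ctla4 with Cd274, 0.912 for Cd274 with Pdcd1lg2 and 0.945 for Pdcd1lg2 with Cd86. All these correlations rest on the same 11 arrays and on their division into groups, and are given as a description.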

How the data were processed

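RNA of 11 samples was measured on 1-colour Affymetrix arrays, 1 array per sample. The authors made the deposited log2 values with RMA (background correction, quantile normalization, summary by probe set), per the submitters' processing notes, where no version is named. At all 45101 probe sets the median of the 3 mock arrays was exactly 0; no source used here states this centring or the log base, and base 2, as RMA gives, was assumed. With no levels, a filter on dim probe sets could not be had.

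Groups came from the sample titles. Controls aside, 34945 probe sets carried a single symbol and were tested, while 932 carried several and 9211 none. The Entrez identifiers of all 17 member probe sets matched RefSeq (GRCm38.p6) with 0 symbols changed. With limma (3.58.1, under R 4.3.3) a mean per group was fitted to each probe set over all 11 arrays (7 residual degrees of freedom), followed by eBayes, and p-values of the 6 comparisons were adjusted by Benjamini-Hochberg over the 34945 probe sets. The probe set was the unit, so that no member rests on a choice among its probe sets. The fit was tested on simulated data with independent noise on each array, which lack the correlation by array number described below. Python 3.11.15, pandas 2.3.3 and matplotlib 3.10.9 made the other tables and figures.

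Array numbers are shared between groups. Deviations from group means correlated between same-numbered arrays at 0.504 to 0.672 for WT FoxP3 and mock, against -0.422 to -0.044 between differently numbered arrays. Deviations sum to 0 in each group, so positive values for same-numbered arrays draw those of the other pairs down, and these ranges are not independent. For A384T and WT FoxP3 the ranges overlap, at 0.153 to 0.719 against -0.609 to 0.284. There 5 of the 6 arrays correlated best with their own number, so the pairing is less clear than for WT FoxP3 and mock. Some blocked values are printed beside the main ones for these comparisons, called paired below. Every main difference, SE and call comes from the fit without the block. For A384T and mock the ranges overlap too (0.0858 to 0.578 against -0.466 to 0.285), and R397W had 2 arrays. Blocked values there are given with the alternatives, and for Icos, Cd28, Tnfrsf14 and H2-Ab1 with A384T over mock. Alternatives were another prior, fewer arrays, other units, other sets of probe sets, rescaled arrays and another threshold. All members were named, other genes by lists (called genes, or the 2 largest differences where none was called), and the 5 genes most like Ctla4 and Cd274. Members, lists and tests were chosen with earlier results of these data known.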

Additional observations from a re-analysis of the deposited data

How the results depend on the processing

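Of the 15 member differences that were called, all 15 kept their direction and their call with the array number as a block, with 1 probe set per gene, with the mean of a gene's probe sets and with array medians subtracted. No alternative reversed any of them. A trend and robust prior kept 10, the fit of only the 2 groups compared 10, and the fit without the arrays numbered 1 kept 4, those of fewer arrays having fewer degrees of freedom. Of all 102 member differences, 76 were called under no setting. The count of called member probe sets for WT FoxP3 over mock (4) ranged from 3 to 6 without 1 array and was 2 without the arrays numbered 1. For A384T over mock (4) it ranged from 3 to 4, was 1 without the arrays numbered 1 and 8 with the replicate block, 3 higher and 5 lower (all Icos and Cd28 probe sets), against 8.36% of all probe sets; 4 of the 6 arrays correlated best with their own number. For R397W over WT FoxP3 (4) it ranged from 1 to 4, was 2 with the trend and robust prior, 1 without the arrays numbered 1, and 5 with the block, against 6.4%. For R397W over A384T (3) it ranged from 0 to 4, was 0 in the fit of 2 groups and without the arrays numbered 1, and 6 with the block, 2 higher and 4 lower, against 6.51%. For A384T over WT FoxP3 it was 0 without any 1 array and 1 with the block, and for R397W over mock 0 throughout. In the paired comparisons the block changed no other member call than those given above. In fits without an R397W array, the remaining one is assumed to vary like the other groups. The filter on dim probe sets was replaced by leaving out the 30% of probe sets with the lowest SD. The signal over background behind each value is unknown.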

Other observations

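Among the 8 probe sets of the 4 ligands, the array numbered 3 was the lowest of its group at 6 with A384T and at 5 with WT FoxP3, and the array numbered 1 was the lowest at 0 in both. Of these probe sets 4 are of Cd80 and so are not independent. How often array 3 was the lowest over all probe sets was not counted. The median over these probe sets was 0.485, 0.226 and 0.224 on A384T arrays 1, 2 and 3, and 0.754, 0.941 and 0.25 on WT arrays 1, 2 and 3. Ctla4, a receptor, was also lowest on array 3 with A384T, at 1.59, but not with WT FoxP3, where array 2 was lowest at 1.73.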
